A study of Mus musculus with 4 samples.

Results

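The genes described here make, sense and move sterols and fatty acids in neural stem cells. The set has 38 members, chosen by symbol as pathway genes and found as rows of a count table of 25965 entries. These members, like the other gene lists below, were chosen with earlier results of these data known. Shares set beside those of all genes therefore describe the lists and do not test them. All 38 passed the filter on low counts that left 14860 genes for testing. Female mouse neural stem cell lines were compared with and without Smchd1, a chromatin protein that acts in X inactivation, by RNA sequencing of 4 libraries, 2 per genotype. Each line came from an E14.5 Smchd1 del/fl embryo, with one allele already deleted and the other removable by Cre, so the controls are heterozygous. One portion of a line received the MSCV-Cre-puro retrovirus, had puromycin added 24 h later and was collected at day 7 as Smchd1 del/del, and the other portion stayed untransduced as the Smchd1 del/fl control. Both genotypes carry an Xist deltaA allele on the maternal 129 X, so that the paternal Castaneus (Cast) X is the inactive one, on a C57BL/6, 129 and Castaneus mixed background. The Cre deletion cannot be told apart from viral transduction or from drug selection, since no library had those without Cre. The lines are called A and B below, and each has 1 control and 1 deleted library. Where 4 values follow one another, they are those of control A, control B and then of deleted A, deleted B. The design text speaks of 3 lines per genotype, whereas the samples and the counts used here hold 2 per genotype.

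Cells build cholesterol from acetyl-CoA through mevalonate, isoprenoid units, squalene and a series of ring-closed sterols. The pathway is set by SREBP transcription factors, which are held in the endoplasmic reticulum by Scap and Insig proteins when sterol is abundant and are released to the nucleus when it is scarce. SREBP-2, encoded by Srebf2, acts mainly on sterol genes and SREBP-1, encoded by Srebf1, mainly on fatty acid genes. In the brain, cholesterol is made locally because lipoproteins do not cross the blood-brain barrier, and proliferating neural progenitors also make fatty acids for new membrane.

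Sequences before the start sites of 7 members are shown first, because these genes are known as SREBP targets or had the values described in most detail below, and the textbook SREBP-responsive promoter combines an SREBP site with CCAAT and Sp1 boxes. Windows came from RefSeq (GRCm38.p6) and ran from 250 bases before to 50 bases after each start, and 29 of the 38 members had one. Fdps, Fdft1, Sqle, Stard4, Npc1, Abcg1, Scd1, Scd2 and Fads1 had none. RefSeq's start sites can differ from the gene starts of the count table. The 160 bases just before the start are printed 5′ to 3′ on the gene's strand. Capitals mark an SREBP site (TCACNCCAC), a CCAAT box (CCAAT, or ATTGG where it lies on the other strand) or an E-box (CACGTG).
Hmgcs1 (chr13:119690191-119690350, plus strand): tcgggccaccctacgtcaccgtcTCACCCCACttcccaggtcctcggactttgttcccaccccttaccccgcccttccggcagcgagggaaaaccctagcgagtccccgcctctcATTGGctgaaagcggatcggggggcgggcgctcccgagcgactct
Mvk (chr5:114444109-114444268, plus strand): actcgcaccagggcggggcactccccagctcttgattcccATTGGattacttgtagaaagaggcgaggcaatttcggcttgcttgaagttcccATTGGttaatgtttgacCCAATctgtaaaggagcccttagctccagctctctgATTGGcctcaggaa
Lss (chr10:76531445-76531604, plus strand): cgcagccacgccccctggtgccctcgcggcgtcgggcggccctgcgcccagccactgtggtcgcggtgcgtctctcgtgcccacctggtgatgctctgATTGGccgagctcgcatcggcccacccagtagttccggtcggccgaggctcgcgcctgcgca
Nsdhl (chrX:72918361-72918520, plus strand): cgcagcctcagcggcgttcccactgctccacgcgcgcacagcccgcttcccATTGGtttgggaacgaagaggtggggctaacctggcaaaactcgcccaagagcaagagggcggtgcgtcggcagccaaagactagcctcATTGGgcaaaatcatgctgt
Ebp (chrX:8193513-8193672, minus strand): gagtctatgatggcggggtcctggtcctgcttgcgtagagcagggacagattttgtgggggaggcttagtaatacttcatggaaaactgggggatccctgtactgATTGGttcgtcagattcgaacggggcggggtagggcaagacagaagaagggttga
Acss2 (chr2:155517883-155518042, plus strand): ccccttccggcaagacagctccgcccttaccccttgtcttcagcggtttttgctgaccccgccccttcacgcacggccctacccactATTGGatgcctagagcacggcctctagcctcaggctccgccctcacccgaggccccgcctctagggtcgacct
Insig1 (chr5:28071252-28071411, plus strand): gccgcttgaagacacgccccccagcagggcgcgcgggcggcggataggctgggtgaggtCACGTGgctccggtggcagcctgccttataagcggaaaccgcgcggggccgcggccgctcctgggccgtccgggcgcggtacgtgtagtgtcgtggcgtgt
Hmgcs1 was the 1 member of 29 (3.45%) with the SREBP site, which began at position -137 of its window, beside 1.44% of 27025 genes in the table. A CCAAT box lay in the windows of 21 members (72.4%, against 41.1% of all genes) and the Sp1 box GGGCGG in 24 (82.8%, against 38.2%). The E-box was in 5 members (17.2%, against 8.09%), namely Abca1, Dhcr7, Hsd17b7, Insig1 and Scap. The printed stretch of Mvk holds 4 CCAAT boxes, that of Nsdhl 2 and that of Insig1 0. All 4 motifs were searched on both strands, and none contains another. A match describes the letters only. A missing match does not show that a gene has no such site, since only these exact letters were searched, within these windows.

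Library totals ran from 29873400 to 34018500 counts. Smchd1 fell from 2779 and 3461 control counts to 785 and 852 (log2 fold change -1.96, SE 0.07, edgeR adjusted p = 0.0194 with line as a block and 0.341 without). Whether its counted exons include the deleted part was not tested. Deleted A stood apart in the interferon-stimulated gene Ifit1, which had 25, 17, 996 and 24 counts. The summed level of 8 neural stem cell markers was 7665 and 6940 CPM (counts scaled to library size) in controls and 7136 and 5879 in deleted cells. Of these 8, 4 had negative and 4 positive log2 fold changes, from -0.48 to 0.51. Neuron markers summed to between 26.2 and 33.8 CPM in all 4 libraries, though 3 of 6 tested had negative and 3 positive log2 fold changes, from -0.58 to 1.12. Microglia markers summed to between 7.84 and 8.92 CPM, nearly all from Csf1r (260, 304, 287 and 251 counts), with Cx3cr1, C1qa and Tmem119 at 0. Mesenchyme markers stayed between 1.88 and 2.15, with Dcn and Lum at 0. Astrocyte markers summed to 568 and 573 CPM in controls and 993 and 910 in deleted cells, all 8 were higher in both lines (38.1% of all genes tested were), and 5 of 8 rose with line as a block, beside 3.71% of all genes. Without the block edgeR called no gene of any kind. Oligodendrocyte markers summed to 79.1 and 89.9 CPM against 97.2 and 103, mostly from Cnp (2177, 2717, 3002 and 2777 counts). The part that these marker genes and the Ifit1 level play in the values below was not tested. In bulk RNA, fewer cells of a type and less RNA per cell cannot be told apart.

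Sterol synthesis genes were lower in Smchd1-deleted cells of both lines, and the difference was larger in line A. All 16 enzymes between acetyl-CoA and cholesterol had negative log2 fold changes (deleted minus control), with a median of -0.67, and 15 of the 16 were lower in both lines. A fit without deleted A had no block and set deleted B against both controls. In it the median of the 16 was -0.32, and 14 stayed negative. The 9 fatty acid synthesis genes had a median of -0.34, with -0.65 in line A and -0.09 in line B, where 7 of the 9 were lower. In the fit without deleted A, which ignores the pairing by line, their median was 0.03 and 5 of the 9 were positive. The median of 5 sterol transport genes was 0.08. A gene was called when its edgeR quasi-likelihood test, with line as a block, had a Benjamini-Hochberg adjusted p under 0.05 over all 14860 genes. By that test 1 of the 38 members fell, the acetyl-CoA synthetase gene Acss2, and 0 rose, beside 1.89% of all genes called lower and 3.71% called higher. At an unadjusted p under 0.05, 19 members were lower and 0 higher, beside 13.6% and 17.2% of all genes. DESeq2 with the same block called 9 members lower and 0 higher, beside 3.12% and 5.63% of the genes it tested. Without the block edgeR called 0 members, as it called 0% of all genes, and 9 members were lower at an unadjusted p under 0.05, beside 4.83% of genes. With the block and no filter on low counts edgeR called 10 members lower, beside 3.59% of 18715 genes.

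Of the 38 members, 31 had a negative fold change, against 48.3% of all genes tested, and the median was -0.42, against 0.01 for all genes. The values ran from -1.03 for Lss to 0.88 for Abcg1. In both lines 26 members (36.4% of all genes) were lower in the deleted library, 3 were higher (Npc1, Abcg1 and Lpin1) and 9 went opposite ways. For 19 members both deleted libraries lay below both controls, beside 22.8% of all genes, and for 2 members, Abcg1 and Lpin1, both lay above, beside 22.9%. Deleted A was the lowest of the 4 libraries for 30 of the 38 members and for 15 of the 16 sterol enzymes, beside 29.3% of all genes. The median of the members was -0.73 for line A and -0.13 for line B. In fits without a block, which ignore the pairing by line, it was -0.11 over all 4 libraries but deleted A and -0.79 over all but deleted B.

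**Figure D1:**
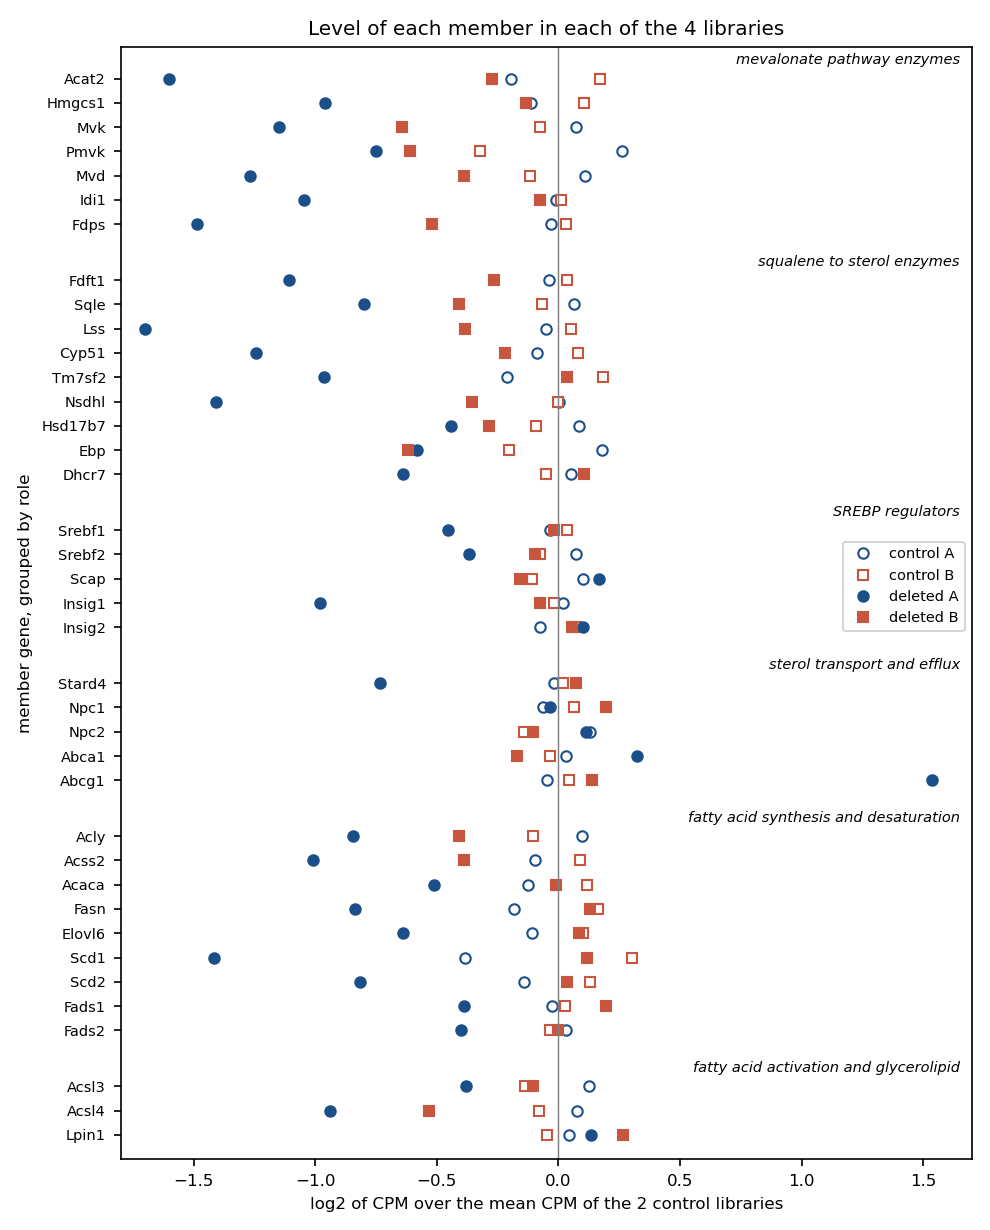
Level of each of the 38 members in each library, as the log2 of its CPM over the mean CPM of the 2 controls, with open symbols for controls, filled symbols for deleted libraries, circles for line A and squares for line B. Deleted A is the lowest point for 30 members, and the sterol enzymes in the upper rows lie to the left of 0 in deleted A throughout.

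Levels can be compared between genes per length only, here as CPM per kilobase of exon (RPKM). Length was the union of all exons annotated for a gene, such as 10787 bases for Lss. A gene with many annotated transcripts can thus get too low a value, and the order of genes is approximate. In controls A and B the desaturase gene Scd2 was the most abundant member, at 978 and 1177.5 RPKM. Hmgcs1 followed at 263 and 306 RPKM and Scd1 at 195 and 314, whose ranges overlap. Acly stood at 133 and 115 RPKM, Fads1 at 103 and 107 and Fasn at 91.8 and 116, again overlapping. The other sterol enzymes ran from Cyp51 at 79.7 and 89.6 RPKM down to Ebp, Idi1 and Fdps, which overlap at 11.5 and 8.83, 9.46 and 9.59, and 9.16 and 9.55. The cholesterol exporter gene Abcg1 was the lowest, at 0.125 and 0.133 RPKM. Members therefore differ widely in depth, from 27 counts of Abcg1 to 158715 counts of Scd2 in control A. Scd1 and Scd2 are close copies of one another, as Acat2 is of its neighbour Acat3, so the split of reads between such copies is uncertain. For 10 members another entry of the table overlaps the gene's span (Mvd, Fdft1, Lss, Tm7sf2, Srebf1, Scap, Npc1, Acss2, Acaca and Acsl3), and the assignment of reads there is uncertain too.

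The 7 mevalonate pathway enzymes were all lower in both lines, and in each of them both deleted libraries were below both controls. Of all genes tested, 36.4% were lower in both lines and 22.8% had both deleted libraries below both controls. Their summed level was 1614 and 1803 CPM in controls A and B against 839 and 1495 in deleted A and B. Hmgcs1 made up most of each of these sums. The median log2 fold change was -0.81, with -1.22 in line A and -0.29 in line B. An unadjusted edgeR p under 0.05 was found for 6 of the 7, beside 13.6% of all genes lower at that p. None of the 7 was called by edgeR, and DESeq2 called Hmgcs1, Mvk, Pmvk and Fdps lower, beside 3.12% of the genes it tested. Hmgcs1, the synthase that makes HMG-CoA (chromosome 13, 119690462 to 119708086 in the table, build mm10), had the highest counts of the group. It stood at 1210.1, 1406, 672 and 1193 CPM. Deleted B was close to control A, whereas deleted A was far below the other 3. Its log2 fold change was -0.54 (SE 0.16, edgeR adjusted p = 0.103).

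Acat2, which joins acetyl-CoA units in the first step, had 109, 140.1, 41.1 and 103 CPM. Both controls were above both deleted libraries, but deleted B was near control A. The log2 fold change of Acat2 was -0.91 (SE 0.23, edgeR adjusted p = 0.0802, DESeq2 adjusted p = 0.248). Mevalonate kinase, Mvk (chromosome 5, 114444269 to 114460591), had 82.0, 74.1, 35.2 and 50.01 CPM. Here the controls were alike and both deleted libraries were clearly lower. Its log2 fold change of -0.89 (SE 0.16) had an edgeR adjusted p of 0.0524, just outside the threshold, and a DESeq2 adjusted p of 2.45e-05. Line A gave -1.22 and line B -0.57.

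Pmvk, the next kinase, had 62.9, 41.96, 31.2 and 34.3 CPM. Its controls differed from one another more than its deleted libraries did, and the log2 fold change was -0.65. Mvd, the decarboxylase that makes isopentenyl diphosphate, had 78.97, 67.6, 30.4 and 56.05 CPM, with a log2 fold change of -0.81. The isomerase gene Idi1 had 33.2, 33.6, 16.2 and 31.7 CPM, so that 3 libraries were nearly equal and deleted A was at 48.8% of its control. Fdps, which makes farnesyl diphosphate, had 38.5, 40.2, 14.0 and 27.4 CPM, the lowest fold change of the group at -0.99 (SE 0.23, edgeR adjusted p = 0.0704). Deleted cells held 36.5% of the Fdps control level in line A and 68.3% in line B.

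The 9 enzymes from squalene to cholesterol all had negative fold changes, and 8 of the 9 were lower in both lines, beside 36.4% of all genes tested. Their summed level was 1555 and 1582 CPM in controls and 760.1 and 1311 in deleted A and B. The median was -0.60, with -0.86 in line A and -0.30 in line B. An unadjusted edgeR p under 0.05 was found for 8 of 9, beside 13.6% of all genes lower at that p. For 7 of them the groups did not overlap, beside 22.8% of all genes that were lower in this way. DESeq2 called Fdft1 and Sqle lower, beside 3.12% of the genes it tested, and edgeR called none of the 9.

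Squalene epoxidase, Sqle (chromosome 15, 59315077 to 59331192), catalyses an oxygen-requiring step that is a known control point. Its level was 389.9, 356, 214 and 280.4 CPM. Both deleted libraries were below both controls, and the log2 fold change was -0.60 (SE 0.14, edgeR adjusted p = 0.0693). Cyp51, the lanosterol demethylase (chromosome 5, 4081145 to 4104746), stood at 352, 396, 158 and 321 CPM. Its deleted B value was near that of control A. The log2 fold change of Cyp51 was -0.73 (SE 0.21, edgeR adjusted p = 0.0983, DESeq2 adjusted p = 0.342).

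Lss, the cyclase that closes the sterol rings (chromosome 10, 76531588 to 76557138), had the lowest fold change of all 38 members. It stood at 222, 238, 70.8 and 176 CPM, with controls alike and deleted A far below deleted B. The log2 fold change was -1.03 (SE 0.29, edgeR adjusted p = 0.0959, DESeq2 adjusted p = 0.319). It was made up of -1.65 in line A and -0.44 in line B. An entry on the opposite strand, 4930483K19Rik, overlaps Lss and had a log2 fold change of -1.10, and without knowledge of strand use in counting the reads of the overlap cannot be told apart.

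Fdft1, squalene synthase, had 103, 108, 48.98 and 87.8 CPM and a log2 fold change of -0.68. The overlapping opposite-strand gene Ctsb went the other way, with a log2 fold change of 0.49. Hsd17b7, a ketosteroid reductase, was lower by less, at 75.3, 66.6, 52.3 and 58.1 CPM and a log2 fold change of -0.36. Tm7sf2, a sterol reductase, had 69.5, 91.3, 41.2 and 82.3 CPM, and its groups overlapped because deleted B exceeded control A. The entry 1110014N23Rik, which overlaps it on the same strand, had a log2 fold change of -0.04. Dhcr7, the reductase of the last step of one branch, differed from the other sterol enzymes. It had 162, 151, 101 and 169 CPM, lower in line A (log2 fold change -0.69) and higher in line B (0.16).

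Among the members 3 are X-linked, namely Nsdhl, Ebp and Acsl4, and all 3 were lower in both lines with groups that did not overlap. The shares of all genes tested that were lower in these 2 ways were 36.4% and 22.8%. Among all 38 members, 26 were lower in both lines and 19 were lower without overlap. Whether X linkage played a part was not tested. Nsdhl, a sterol dehydrogenase (X, 72918557 to 72958514), stood at 156.2, 155.8, 58.8 and 121.8 CPM. The controls were almost equal and both deleted libraries were lower, deleted A by more. Nsdhl had a log2 fold change of -0.88 (SE 0.25, edgeR adjusted p = 0.0999, DESeq2 adjusted p = 0.343). Ebp, the sterol isomerase (X, 8185329 to 8193512), had 26.6, 20.4, 15.7 and 15.3 CPM. Its deleted libraries were alike, unlike those of most sterol enzymes, and its log2 fold change of -0.59 (SE 0.13) had an edgeR adjusted p of 0.0666. Acsl4, which activates arachidonic and related acids (X, 142317993 to 142390535), had 172, 154, 85.3 and 113 CPM. Both deleted libraries were well below both controls, with a log2 fold change of -0.73 (SE 0.15, edgeR adjusted p = 0.0571, DESeq2 adjusted p = 6.90e-05).

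The 5 genes of the SREBP system had log2 fold changes from -0.53 to 0.08, and none had an unadjusted edgeR p under 0.05. Their median log2 fold change was -0.23, with -0.42 in line A and -0.05 in line B. Srebf2 (chromosome 15, 82147266 to 82205376) stood at 461, 417, 340.2 and 410.2 CPM, with deleted B just below control B. Srebf1 (chromosome 11, 60199089 to 60222581) stood at 374, 392, 279 and 377 CPM, with deleted B between the controls. Their log2 fold changes were -0.23 (SE 0.12) and -0.24 (SE 0.11), with edgeR adjusted p-values of 0.249 and 0.210. Scap, the sterol-sensing escort, had 225, 194, 235 and 188 CPM and a log2 fold change of 0.01. Here the lines differed more than the genotypes.

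The paralogues Insig1 and Insig2, both retention factors, had different values. Insig1, itself a known SREBP target, had 241, 235, 120.7 and 226 CPM, so that deleted A alone was low, at 50% of its control. Its log2 fold change was -0.53 (SE 0.23, edgeR adjusted p = 0.196, DESeq2 adjusted p = 0.534). Line A gave -1.0 and line B -0.06. Insig2 had 31.2, 34.4, 35.2 and 34.1 CPM, with groups that overlapped and a log2 fold change of 0.08. The difference between the Insig genes was not tested.

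The 5 transport and efflux genes showed no common direction, and 0 of 5 had an unadjusted edgeR p under 0.05. Their summed level was 693 and 663 CPM in controls and 703 and 669 in deleted cells. Npc2, which carries cholesterol out of lysosomes, had 217, 179, 214 and 184 CPM and a log2 fold change of 0.01, and Npc1, its membrane partner, had 149, 163, 153 and 179 CPM and 0.08. The exporter gene Abca1, a target of the oxysterol receptor LXR, had 221, 211, 269.9 and 192 CPM. It was the highest in deleted A and the lowest in deleted B, with a log2 fold change of 0.08. The carrier gene Stard4 had 106, 109, 64.5 and 113 CPM, low in deleted A alone. Abcg1, a second LXR target, had only 27, 33, 91 and 33 counts. Its log2 fold change of 0.88 (SE 0.43, edgeR adjusted p = 0.240) rests on deleted A, since line B gave 0.09.

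Among the 9 genes of fatty acid synthesis and desaturation, all had negative fold changes, 7 were lower in both lines and 1 fell by the edgeR test. Of all genes tested, 48.3% had negative fold changes, 36.4% were lower in both lines and 1.89% fell. Their summed level was 9223 and 11150 CPM in controls and 5692 and 10420 in deleted A and B. Scd2 made up most of each of these sums. The median was -0.34, with -0.65 in line A and -0.09 in line B. Unadjusted edgeR p-values were under 0.05 for 4 of the 9, beside 13.6% of all genes lower at that p. Both deleted libraries lay below both controls for 2 of the 9 (Acss2 and Acly), near the 22.8% of all genes, and the groups of the other 7 overlapped.

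Acss2, the enzyme that makes acetyl-CoA from acetate (chromosome 2, 155517948 to 155585724), was the member that fell. It had 4775, 6230, 2858 and 4196 counts, or 161, 183, 85.4 and 131 CPM. Both deleted libraries were below both controls, at 53.1% of the control level in line A and 71.8% in line B. The log2 fold change was -0.69 (SE 0.12, edgeR adjusted p = 0.0467), and DESeq2 with the block gave an adjusted p of 4.10e-05. Without the block the edgeR adjusted p was 0.424. Fits with a library left out had no block and called 0 of all genes, so they say nothing of this call, and in them the Acss2 log2 fold change was -0.39 without deleted A and -1.03 without deleted B. Acss2 overlaps 3 entries on the opposite strand, Ggt7, 4930471I20Rik and Gss, whose log2 fold changes were -0.42, -0.68 and -0.19 and none of which was called, and their part in the Acss2 count was not tested.

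Acly, which makes cytosolic acetyl-CoA from citrate (chromosome 11, 100476353 to 100528000), stood at 701, 609, 365 and 493 CPM, with no overlap between groups. Acly had a log2 fold change of -0.62 (SE 0.16, edgeR adjusted p = 0.0842, DESeq2 adjusted p = 0.000565). The carboxylase gene Acaca, which commits acetyl-CoA to fatty acids, had 58.5, 69.3, 44.8 and 63.4 CPM and a log2 fold change of -0.26, with overlapping groups. Fatty acid synthase, Fasn, had 1005, 1274, 638 and 1248 CPM, so that deleted B was almost level with control B and deleted A was low, and its log2 fold change was -0.34.

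The stearoyl-CoA desaturase gene Scd2, the main desaturase of brain (chromosome 19, 44293676 to 44306864), had the highest counts of all members. It stood at 5343, 6434, 3343 and 6026 CPM, where deleted B lay between the controls, and the log2 fold change was -0.39 (SE 0.16, edgeR adjusted p = 0.186). Scd1 (chromosome 19, 44394451 to 44407709) stood at 953, 1536, 466 and 1352 CPM. Its controls differed from one another by more than its line B libraries did, and the log2 fold change was -0.61 (SE 0.21, edgeR adjusted p = 0.135). The elongase gene Elovl6 had 213, 246, 147 and 243 CPM and a log2 fold change of -0.27. The polyunsaturated acid desaturase genes Fads1 and Fads2 were the least different of the 9, with log2 fold changes of -0.10 and -0.20. Fads1 had 496, 515, 386 and 578 CPM and Fads2 296, 283, 219 and 289 CPM, each lowest in deleted A.

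Of the 3 genes of acid activation and glycerolipid synthesis, Acsl4 is given above. Acsl3, a lipid-droplet acyl-CoA synthetase, had 162, 135, 114 and 138 CPM, lower in line A and nearly level in line B, with a log2 fold change of -0.24. The entry Utp14b, which overlaps Acsl3 on the same strand, had -0.57. Lpin1, a phosphatidate phosphatase and coactivator, was higher in both lines, at 106.6, 100.2, 113 and 124.5 CPM. Both of its deleted libraries were above both controls, with a log2 fold change of 0.20 (SE 0.08, edgeR adjusted p = 0.180).

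For 34 of the 38 members the log2 fold change was more negative in line A than in line B, against 48.3% of all genes tested. In line A 32 members were lower and in line B 29. In the sterol enzymes the median was -1.05 for line A and -0.30 for line B, and all 16 were more negative in line A. With 1 library of each genotype per line, the difference between lines has no replicate and was not tested. Line A is also the line whose deleted library had the high Ifit1 count. In line B the lowest members were Mvk, Fdps and Acss2, with log2 changes of -0.57, -0.55 and -0.48. Insig1, Idi1 and Fasn were near 0 there, at -0.06, -0.09 and -0.03, while in line A they were at -1.0, -1.04 and -0.65.

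**Figure D2:**
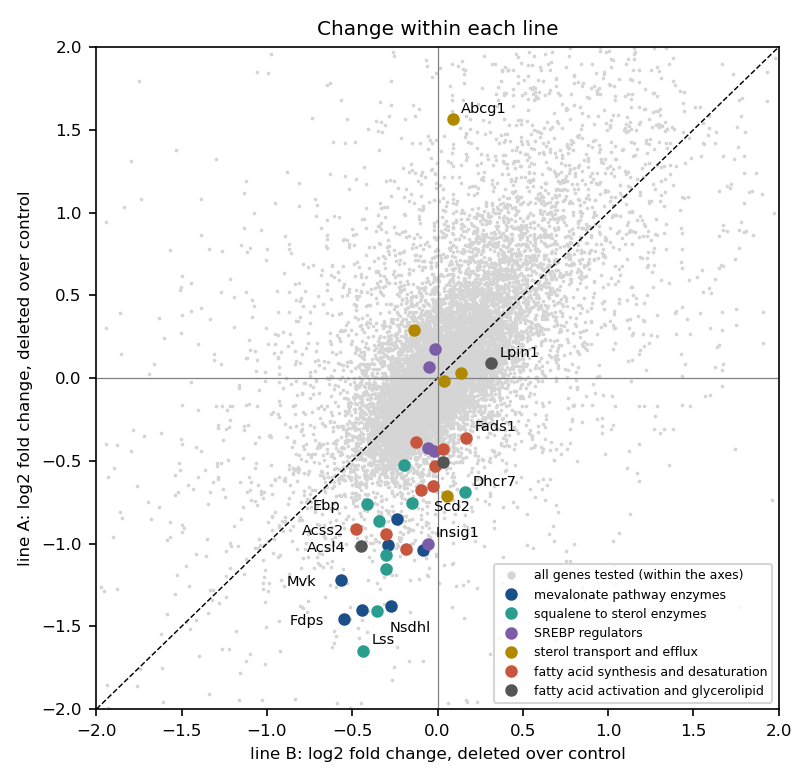
Log2 fold change, deleted over control, in line B (horizontal) and line A (vertical), with members coloured by role over all genes tested in grey and a dashed line where both are equal. Sterol enzymes lie below the dashed line at the lower left, and Dhcr7 and Fads1 lie to the right of 0 in line B.

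Other genes of these pathways, from lists that hold no member, were mixed in direction. Of 15 further sterol and isoprenoid genes tested, 0 were called, and their median log2 fold change was 0.00. At an unadjusted edgeR p under 0.05, 3 of the 15 were lower, beside 13.6% of all genes. The sterol methyl oxidase gene Sc4mol, a further cholesterol enzyme, had 6624, 8169, 3625 and 6886 counts. Its log2 fold change was -0.60 (SE 0.21, edgeR adjusted p = 0.146), near the median of the squalene to sterol enzymes. Sc5d, a desaturase that acts later in the pathway, had 2937, 2957, 1715 and 2122 counts, with both deleted libraries below both controls. The log2 fold change of Sc5d was -0.67 (SE 0.14, edgeR adjusted p = 0.0651, DESeq2 adjusted p = 0.00119). The third gene lower at an unadjusted p was Ufd1l, a cofactor in protein degradation, at -0.35. The site proteases of SREBP, Mbtps1 and Mbtps2, had log2 fold changes of -0.02 and -0.06.

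Of 14 tested genes of sterol uptake, esterification and LXR response, 1 rose and 0 fell, with a median of 0.05. Of all genes tested, 3.71% rose and 1.89% fell. The endocytic receptor gene Lrp1 had 6540, 11562, 10941 and 14267 counts and rose by 0.48 on the log2 scale (SE 0.08, edgeR adjusted p = 0.0429). Its groups overlapped in counts, with control B above deleted A. Ch25h had 0 counts in all libraries. Of 28 other fatty acid and glycerolipid genes 1 fell and 3 rose, beside the same 1.89% and 3.71% of all genes, with a median of 0.07. Fads3, a desaturase homologue from the gene cluster of Fads1 and Fads2, had 623, 450, 289 and 169 counts. It fell by 1.30 on the log2 scale (SE 0.13, edgeR adjusted p = 0.0226), by nearly the same amount in both lines (-1.28 and -1.32).

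The genes that rose in that list were the elongases Elovl7 and Elovl2 and the acyltransferase Agpat3. Elovl7 had 41, 76, 257 and 183 counts (log2 fold change 1.89, edgeR adjusted p = 0.0467). Elovl2 had 873, 1018, 1402 and 1427 counts (0.54, edgeR adjusted p = 0.0384), and Agpat3 had 5939, 7877, 10270 and 9624 (0.50, edgeR adjusted p = 0.0467). Both deleted libraries were above both controls for each of these 3 genes.

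Fatty acid oxidation genes were higher in deleted cells. All 12 had positive fold changes, 11 were higher in both lines, 8 had an unadjusted edgeR p under 0.05 and 2 rose, with a median of 0.29. Of all genes 38.1% were higher in both lines, 17.2% were higher at that p and 3.71% rose. The metabolic coactivator gene Ppargc1a had 1573, 2093, 3720 and 3363 counts and rose by 0.92 (SE 0.09, edgeR adjusted p = 0.0226). Hadhb, a subunit of the mitochondrial trifunctional protein, had 625, 751, 1143 and 998 counts and rose by 0.60 (SE 0.10, edgeR adjusted p = 0.0458). The median of these genes was 0.38 for line A and 0.27 for line B. Without the block edgeR called none of the genes in these 4 lists, as it called 0% of all genes. Astrocyte markers, given above, were higher in the same libraries, and their part in these values was not tested.

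**Figure D3:**
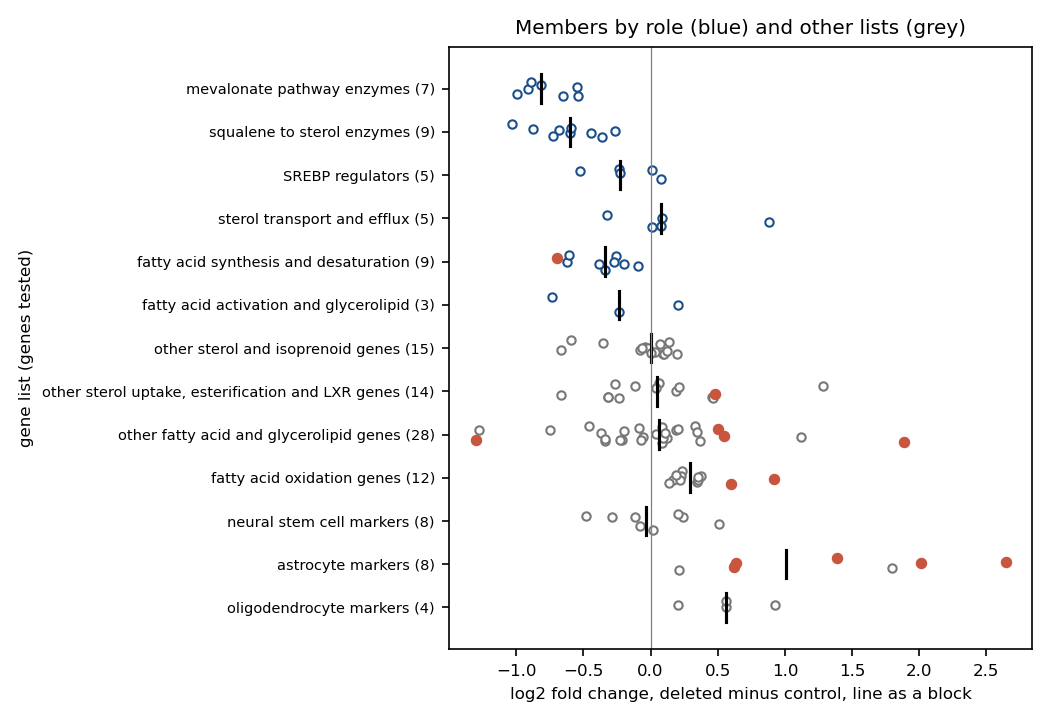
Log2 fold change, deleted minus control with line as a block, of each tested gene, by role of the members (blue rings) and in other lists (grey rings), with genes called by edgeR filled in red and a black bar at each median. The medians run from -0.81 for the mevalonate enzymes to 0.29 for fatty acid oxidation and 1.01 for the astrocyte markers.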

How the data were processed

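RNA of 4 female neural stem cell cultures, 2 Smchd1 del/del and 2 del/fl, was read from 1 table of raw counts per gene deposited by the authors, whole numbers on mm10 coordinates, per the file headers and the submitters' processing notes. The notes name bcl2fastq, TopHat2 2.0.12 and edgeR with no role stated; the counting tool, with its strand setting and filters, was not given in the sources used here. All analyses used the 4 columns of all reads. Another 8 columns hold reads assigned to a parental genome and outnumber the labelled samples of their groups. They were left out, and the planned test of the Cast to 129 ratio was not run. No column of either kind can be tied to a single sample by the labels. Group came from the column names and labels. The labels' replicate numbers do not match the 2 line numbers in the column names, which are written A and B.

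The test over all genes was run with edgeR 4.0.16 in R 4.3.3 (filterByExpr, TMM, quasi-likelihood, line as a block, Benjamini-Hochberg threshold 0.05 over 14860 of 25965 entries, 66 of them repeats of a symbol). Line was a block because, per the labels, each line was split into both genotypes. Deviations of the same line from the group means correlated at r = 0.72 over the genes tested (genes are not independent), and the lines lay apart on principal component 1 (58.4% of variance). The libraries of either genotype differed beyond counting error, with chi-square values of 43.9 (controls) and 71.1 (deleted cells) per degree of freedom. With 2 lines, p-values cover the spread of these 4 cultures and no more. CPM are TMM-scaled, with a prior count of 0.5 in log2 values of single lines, and RPKM use exon lengths from GENCODE M21. Scripts were tested on simulated data. Alternatives were no block, DESeq2 1.42.0 with the block, other scalings, no filter, and each library left out, the last without a block. Members in every library were named if called, X-linked or among the highest counts of their role, and other lists by called genes or the 2 highest counts, 1 of which is not reported here. Every member is given; Ifit1, Sc5d, Ufd1l, Mbtps1, Mbtps2 and Sc4mol's comparison with the enzymes were chosen after their values were seen. The members and lists were chosen with earlier results of these data known. The listed symbols Msmo1, Sc5dl and Map2 stand in the table as Sc4mol, Sc5d and Mtap2; Mtap2 (log2 fold change 0.03) was not added to the neuron markers.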

Additional observations from a re-analysis of the deposited data

Results flagged for a closer look

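For 9 members the deleted library was above its control in one line and below it in the other. The difference between lines was not tested in any of them, since each line has 1 library per genotype. Dhcr7, the reductase that makes cholesterol from its last precursor, had a log2 change lower in line A than in line B by a difference of -0.85, Stard4 of -0.77, Acsl3 of -0.54, Fads1 of -0.53 and Fads2 of -0.46. For these 5 genes line A was the lower one and line B was slightly above its control. The difference was 0.43 for the exporter gene Abca1, which was higher in line A and lower in line B, 0.19 for Insig2 and 0.12 for Scap. Npc2 differed by -0.056, with both lines close to 0. Of these 9 genes none was called in the test of all 4 libraries.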

How the results depend on the processing

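Paired by line, edgeR called 1 member lower (Acss2). Without the replicate block it called 0, with library totals or RLE factors 1, with no filter on low counts 10 (1802 of 18715 genes in either direction, against 832 of 14860), and with each library left out 0 to 0; DESeq2 with the replicate block called 9. All 10 and all 9 included Acss2, and 0 members were called higher under any of these settings. The fits without the block, including those with a library left out, called 0 of all genes, so a lost call there says nothing of a single member. Acss2 had a log2 fold change of -0.69 with the block, -0.67 without it and -1.03 to -0.39 with a library left out, at edgeR adjusted p-values of 0.0467, 0.424 and 0.223 to 0.866. The cause was not tested. The members' median of -0.42 was -0.37 without the block, -0.11 without deleted A and -0.79 without deleted B. Scap had a log2 fold change of 0.01 and, with no filter, -0.0015. With each library left out, values crossed 0 in 12 members, from -0.98 to 0.032 for Tm7sf2, -0.66 to 0.11 for Dhcr7, -0.16 to 0.15 for Scap, -0.75 to 0.072 for Stard4, -0.053 to 0.195 for Npc1, -0.12 to 0.15 for Npc2, -0.17 to 0.30 for Abca1, -0.86 to 0.13 for Fasn, -0.66 to 0.082 for Elovl6, -1.44 to 0.12 for Scd1, -0.84 to 0.032 for Scd2 and -0.41 to 0.19 for Fads1. Leaving out deleted A gave 11 of these reversals, control B 2 and deleted B 1. These fits ignore the pairing by line. Against their own control in line B, Tm7sf2, Fasn, Elovl6, Scd1 and Scd2 stayed lower, at -0.15, -0.03, -0.02, -0.18 and -0.09. Npc2 stayed slightly higher there, at 0.04. In Dhcr7, Scap, Stard4, Abca1 and Fads1 line B had the sign of the value without deleted A. Depth limits Abcg1 most, with 27 to 91 counts per library. The planned test of the Cast to 129 ratio and its alternatives were not run.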
